A study of Mus musculus with 6 samples.

Results

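Toll-like receptors are the membrane proteins with which cells of innate immunity recognise conserved parts of microbes and material released from damaged cells. Described here are 10 genes of 19241 in the deposited expression table: Tlr1, Tlr2, Tlr3, Tlr4, Tlr5, Tlr6, Tlr7, Tlr8 and Tlr13, which are 9 of the 12 Toll-like receptor genes listed, and Myd88, the adaptor that most of them share. They were taken by symbol and were selected on their FPKM level, as the better expressed receptors of the family, so their level is a description and is not tested. RNA came from the whole interscapular brown adipose depot of newborn mice, with 3 libraries from mice labelled Fstl1-floxed (WT) and 3 from mice labelled Myf5-Fstl1 KO (KO). Brown adipose tissue is the heat-producing fat of mammals. Fstl1 encodes follistatin-like 1, a secreted glycoprotein that has been reported to act on Tlr4 together with its partner Cd14, and the deletion is placed by the label in cells descended from Myf5-expressing precursors, which give rise to skeletal muscle and much of this brown fat. Cells of other descent in the depot, such as macrophages and endothelium, are outside the labelled deletion, and the labels name neither the driver line nor the sex of the animals. The comparison is between depots with and without the labelled deletion, which by the sex-linked RNAs given below also differ in sex.

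The libraries summed to between 486449 and 556968 FPKM (fragments assigned to a transcript, scaled by its length and by the library's mapped fragments). An estimate of depth, read from the spacing of low values, gave 13760000 to 15160000 reads. Fstl1 itself ranged from 54.4 to 130.04 FPKM in WT and from 7.93 to 13.1 FPKM in KO. Brown adipocyte markers, Ucp1 among them, were all detected. Their summed level was 21013 to 26478 FPKM in WT and 20141 to 22008 FPKM in KO, with Fabp4 the largest part. Ucp1 itself was at 4366 to 6255 FPKM in WT and 1695 to 3592 FPKM in KO. Of the 8 markers, 4 were lower in every KO library (Ucp1, Plin1, Ebf2 and Prdm16) and 0 higher. The shares over all tested genes were 11.4% lower and 13.6% higher. KO replicate 1 stood apart in skeletal muscle markers, with a summed 245 FPKM against 1028 to 1494 FPKM in the other 5 libraries. Xist, the RNA that coats a silenced X chromosome, was at 44.8 to 85.5 FPKM in WT and at most 0.92 FPKM in KO, while the Y-linked gene Ddx3y was at 59.5 to 60.8 FPKM in KO and at most 0.23 FPKM in WT. Sex and genotype therefore coincide in these libraries and cannot be told apart in any difference given here.

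Members of the family divide by where they work. Tlr1, Tlr2, Tlr4, Tlr5 and Tlr6 sit at the cell surface and recognise lipopeptides, lipopolysaccharide and flagellin, whereas Tlr3, Tlr7, Tlr8, Tlr9 and Tlr13 sit in endosomes and recognise nucleic acids. All but Tlr3 signal through Myd88 to IRAK kinases, Traf6 and NF-kappaB, while Tlr3, and Tlr4 from the endosome, use the adaptor Ticam1 and the interferon regulatory factors. In fat tissue these receptors are best known from resident macrophages, and adipocytes and endothelial cells express some of them.

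The genes are scattered over the genome apart from 2 neighbouring pairs. On GRCm38, the assembly known as mm10 that the submitters' processing notes name, Tlr8 (chrX:167241123-167264329) and Tlr7 (chrX:167303380-167330574) lie side by side on the minus strand of the X chromosome, 39050 bases apart. Tlr13 lies elsewhere on the X chromosome (chrX:106143275-106160493, plus strand). Tlr1 (chr5:64924680-64933600) and Tlr6 (chr5:64953092-64970942) form the other pair, 19491 bases apart on the minus strand. The remaining members are on different chromosomes: Tlr2 at chr3:83836272-83841824, Tlr3 at chr8:45395665-45411075, Tlr4 at chr4:66827551-66846581, Tlr5 at chr1:182954752-182976044 and Myd88 at chr9:119335934-119340018. Tlr1 and Tlr6 are close copies in part: 15.3% of the 50-base windows of the Tlr1 transcript and 12.6% of those of Tlr6 occur in a transcript of another gene, chiefly each other, so their values could be mixed by read assignment. No such window was shared by the other members.

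Promoter windows of 250 bases before the start were found for 8 of the 10 members in RefSeq sequences of GRCm38.p6. They are shown for Tlr13 and Tlr8, members whose KO and WT values did not overlap, and for Tlr3 and Tlr2, members whose values did and whose windows hold the NF-kappaB letters. Each sequence runs from 5′ to 3′ on the strand of its gene, and capitals mark matches to the motif on either strand:
Tlr13: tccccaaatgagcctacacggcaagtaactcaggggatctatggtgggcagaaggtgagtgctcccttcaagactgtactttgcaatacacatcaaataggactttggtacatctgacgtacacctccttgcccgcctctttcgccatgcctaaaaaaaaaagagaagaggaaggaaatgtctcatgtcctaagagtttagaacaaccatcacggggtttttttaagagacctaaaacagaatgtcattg
Tlr8: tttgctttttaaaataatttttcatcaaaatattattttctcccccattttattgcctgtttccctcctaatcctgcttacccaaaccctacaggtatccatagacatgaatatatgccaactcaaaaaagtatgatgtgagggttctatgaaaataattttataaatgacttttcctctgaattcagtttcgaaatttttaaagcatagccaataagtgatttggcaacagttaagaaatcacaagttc
Tlr3: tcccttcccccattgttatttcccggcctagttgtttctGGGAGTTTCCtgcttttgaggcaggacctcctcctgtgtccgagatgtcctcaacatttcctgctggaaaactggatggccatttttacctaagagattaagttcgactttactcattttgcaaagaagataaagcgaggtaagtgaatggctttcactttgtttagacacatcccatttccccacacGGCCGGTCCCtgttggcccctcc
Tlr2: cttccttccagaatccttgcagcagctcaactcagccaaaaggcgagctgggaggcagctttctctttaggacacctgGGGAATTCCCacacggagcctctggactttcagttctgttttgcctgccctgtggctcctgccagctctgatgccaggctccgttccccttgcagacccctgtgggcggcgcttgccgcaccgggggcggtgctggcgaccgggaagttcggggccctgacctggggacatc
The windows are chrX:106143025-106143274 (plus strand) for Tlr13, chrX:167264330-167264579 (minus) for Tlr8, chr8:45410381-45410630 (minus) for Tlr3 and chr3:83841609-83841858 (minus) for Tlr2. Those of Tlr3 and Tlr2 precede a transcript start that lies inside the gene span given above. The NF-kappaB letters searched, GGGA, any 4 bases and CC, were present in 17.6% of 32851 promoter windows of this length. They occurred 2 times in the Tlr3 window, beginning 211 and 23 bases before the start. In the Tlr2 window they occurred at 172 bases before the start, where the letters matched on both strands, and Tlr5 had a match 20 bases before its start. The interferon response letters, GAAA, any 2 bases and GAAA, found in 2.98% of windows, were present upstream of Myd88 (40 bases before the start) and upstream of a Tlr6 start, where 2 overlapping matches began 116 and 110 bases before it. The PU.1 letters GAGGAAGT, for a factor of macrophages and other myeloid cells, were in 2.44% of windows and in that of a Tlr1 start. The windows of Tlr13 and Tlr8 held none of the 3 patterns.

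Myd88 was by far the most abundant of the 10 transcripts. It ranged from 16.3 to 23.7 FPKM over the 6 libraries and ranked at the top in each. Tlr3, the sensor of viral duplex RNA, followed at 2.18 to 4.2 FPKM, then Tlr13 at 1.25 to 3.63, Tlr7 at 1.02 to 3.06, Tlr8 at 0.98 to 3.33 and Tlr4 at 0.84 to 2.40 FPKM. Below them came Tlr5 at 0.73 to 1.13, Tlr2 at 0.27 to 1.02, Tlr1 at 0.32 to 0.75 and Tlr6 at 0.19 to 0.40 FPKM. Among neighbours in this order only Myd88 and Tlr3 were separated in range, and all other neighbours overlapped. Compared within a library, Tlr13 was above Tlr7 in 6 of 6 libraries, Tlr4 above Tlr5 in 6 of 6 and Tlr5 above Tlr2 in 6 of 6, while Tlr3 was above Tlr13, Tlr7 above Tlr8 and Tlr8 above Tlr4 in 4 of 6. At the estimated depth, the Tlr13 values rest on about 75 to 217 reads per library, those of Tlr2 on 12 to 45 and those of Tlr6 on 10 to 22. The edge of the chosen set is not a level: Tlr6, a member, averaged 0.26 FPKM, and Tlr9, which is not a member, averaged 0.28 FPKM. Tlr11 and Tlr12 did not exceed 0.06 FPKM in any library, on about 3 reads at most.

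**Figure D1:**
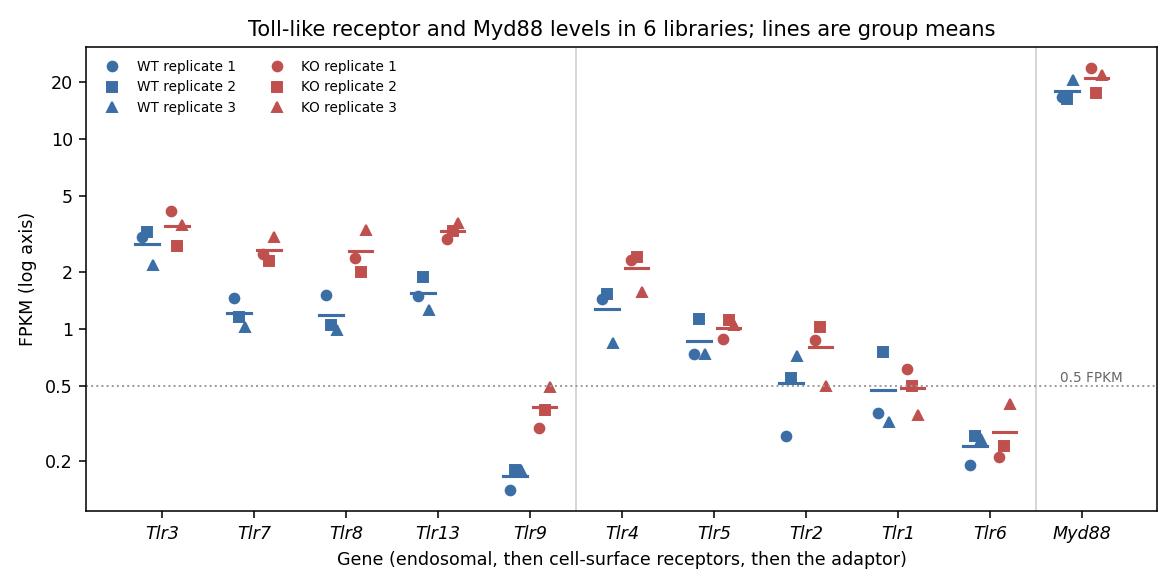
FPKM of 9 Toll-like receptors, Tlr9 and Myd88 on a log axis, with 1 point per library (blue WT, red KO, shapes for replicates) and a line at each group mean; the dotted line at 0.5 FPKM marks the mean level above which genes were tested. The KO points of Tlr7, Tlr8, Tlr13, Tlr9 and Tlr4 all lie above the WT points, the last by 0.04 FPKM.

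Among the endosomal receptors, the 3 X-linked genes Tlr13, Tlr7 and Tlr8 had KO means 2.14 to 2.18 times their WT means, and Tlr13 alone passed the test. Tlr13, which recognises bacterial ribosomal RNA in mice, read 1.49, 1.88 and 1.25 FPKM in the WT libraries, given here in the order of their replicate numbers, against 2.97, 3.28 and 3.63 FPKM in the KO libraries. Every KO library was above every WT library, with a gap of 1.09 FPKM between the groups. The means were 1.54 ± 0.318 FPKM in WT and 3.29 ± 0.330 FPKM in KO (SD, n = 3 each), a ratio of 2.14. On the log2(FPKM + 1) scale, where changes of genes as low as these come out too small, Tlr13 rose by 0.76 (SE 0.16; limma, adjusted p 0.0444 over 13331 genes). It was the 1 call among the 8 members that passed the filter on low values, where 2.21% of all tested genes were called, 1.21% higher and 1.01% lower in KO. Of the 8, 4 had an unadjusted p under 0.05, all higher in KO, where 10.6% of all tested genes did so. The call was lost without the filter, with libraries rescaled to a common sum, with the replicate number as a block (adjusted p 0.0737) and when any 1 library was left out (adjusted p 0.0615 without WT replicate 1 to 0.139 without KO replicate 3), while the log2 difference stayed at 0.68 to 1.11 in all 16 alternatives that tested the gene.

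Tlr7, a receptor for uridine-rich RNA, read 1.45, 1.15 and 1.02 FPKM in the WT libraries against 2.47, 2.28 and 3.06 FPKM in the KO libraries. The groups were 0.83 FPKM apart, with means of 1.21 ± 0.221 and 2.60 ± 0.407 FPKM (SD, n = 3 each). The log2 difference of 0.71 (SE 0.16) missed the threshold (limma, adjusted p 0.0565) and passed in 1 of 16 alternatives, robust eBayes. Tlr8, the neighbour of Tlr7 and a related RNA receptor, read 1.5, 1.05 and 0.98 FPKM in the WT libraries against 2.36, 1.99 and 3.33 FPKM in the KO libraries. Its groups were 0.49 FPKM apart, and the log2 difference was 0.70 (SE 0.18; limma, adjusted p 0.0868). Tlr7 and Tlr8 put the 6 libraries in the same order, with WT replicate 3 lowest and KO replicate 3 highest in each. Pearson's r between these neighbours was 0.98 over the 6 libraries, and between Tlr7 and Tlr13 it was 0.94. These coefficients include the difference between the groups. The range over the 45 pairs of members was −0.22 to 0.98.

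The 455 tested X-linked genes had a median log2 difference of 0.017, beside 0.011 over all tested genes. Of the X-linked genes, 9.89% were higher in every KO library than in any WT library and 1.10% were called higher. Among all tested genes of a comparable level, with a mean of 1 to 4 FPKM, the shares were 14.7% and 1.12%. Tlr9, a sensor of unmethylated DNA on chromosome 9, was also higher in each KO library (0.30, 0.37 and 0.49 FPKM) than in any WT library (0.14, 0.18 and 0.18 FPKM). These Tlr9 values rest on about 7 to 25 reads, and the gene was below the filter; in the fit without a filter it did not pass (limma, log2 difference 0.25, adjusted p 0.154). Tlr3, on chromosome 8, read 3.03, 3.22 and 2.18 FPKM in the WT libraries against 4.2, 2.74 and 3.53 FPKM in the KO libraries. Its groups overlapped, with KO replicate 2 below 2 of the WT libraries, and the log2 difference was 0.23 (SE 0.18; limma, adjusted p 0.521).

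**Figure D2:**
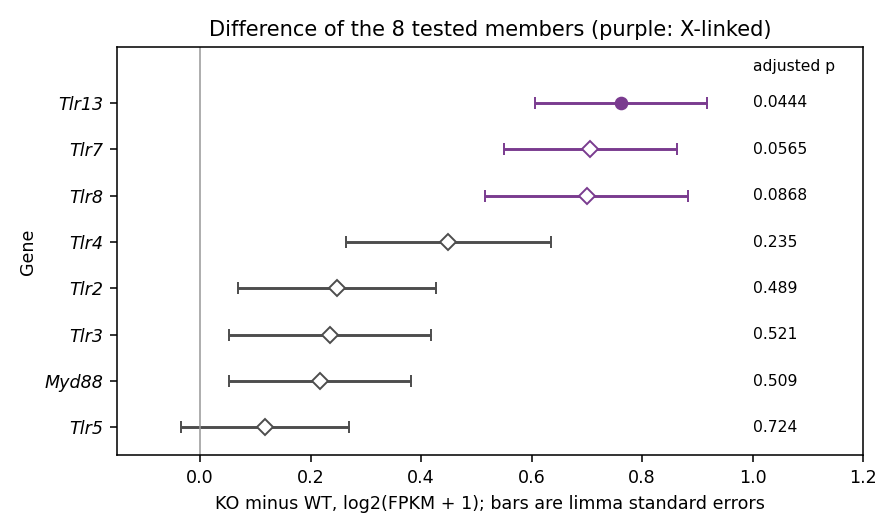
Difference between KO and WT on the log2(FPKM + 1) scale for the 8 tested members, with limma standard errors and adjusted p at the right; purple marks X-linked genes and the filled point the gene past an adjusted p of 0.05. Tlr13 (0.76), Tlr7 (0.71) and Tlr8 (0.70) have the highest differences, and the other members run from 0.12 for Tlr5 to 0.45 for Tlr4.

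None of the cell-surface receptors passed the test. Tlr4, the receptor for bacterial lipopolysaccharide, read 1.44, 1.52 and 0.84 FPKM in the WT libraries against 2.31, 2.40 and 1.56 FPKM in the KO libraries. The lowest KO value exceeded the highest WT value by 0.04 FPKM, which is less than the SD within either group (0.372 and 0.461 FPKM). The log2 difference was 0.45 (SE 0.19; limma, adjusted p 0.235). Tlr5, the flagellin receptor, read 0.73, 1.13 and 0.73 FPKM in the WT libraries against 0.88, 1.11 and 1.05 FPKM in the KO libraries. Tlr2, which pairs with Tlr1 or Tlr6 to bind lipopeptides, read 0.27, 0.55 and 0.72 FPKM in the WT libraries against 0.87, 1.02 and 0.50 FPKM in the KO libraries. Both genes overlapped between the groups (limma, adjusted p 0.724 for Tlr5 and 0.489 for Tlr2). The partners of Tlr2 were below the filter. Tlr1 read 0.36, 0.75 and 0.32 FPKM in the WT libraries against 0.61, 0.50 and 0.35 FPKM in the KO libraries, and Tlr6 read 0.19, 0.27 and 0.26 FPKM in the WT libraries against 0.21, 0.24 and 0.40 FPKM in the KO libraries. Fitted without the filter, neither passed (limma, adjusted p 0.966 for Tlr1 and 0.793 for Tlr6).

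Myd88 read 16.8, 16.3 and 20.6 FPKM in the WT libraries against 23.7, 17.5 and 21.9 FPKM in the KO libraries. WT replicate 3 was above KO replicate 2, so the groups overlapped, and the log2 difference was 0.22 (SE 0.16; limma, adjusted p 0.509). Its value rests on 470 to 624 reads per library, more than any receptor.

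Among all tested genes, 51.6% had a log2 difference above 0. Counted over the members, including Tlr1 and Tlr6 below the filter, the log2 difference was above 0 in 10 of 10. It was above 0 in 9 when WT replicate 1, WT replicate 3 or KO replicate 1 was left out, where Tlr1 turned, and without KO replicate 3, where Tlr6 did. The median over the 10 was 0.24, beside 0.0095 over all 19241 genes listed. Every KO library was above every WT library in 4 members, Tlr13, Tlr7, Tlr8 and Tlr4, where the share over all genes listed was 11.0% and over the tested genes 13.6%. By place of action, the median was 0.70 for the 4 endosomal members and 0.12 for the 5 at the surface. Of the endosomal members 3 are X-linked, and the other, Tlr3, had a difference of 0.23. X linkage and place of action thus cannot be separated in this median. Tlr9, endosomal, not X-linked and not a member, had 0.25 and was left out. Its KO mean was 2.32 times its WT mean, on about 7 to 25 reads per library. The log2(FPKM + 1) scale shrinks the change of a gene at this level. The surface median includes Tlr1 and Tlr6, which were below the filter. The difference between these groups was not tested. Summed over the 12 receptor genes, the level was 10.6, 11.8 and 8.52 FPKM in WT and 17.2, 16.0 and 17.9 FPKM in KO. Tlr7, Tlr8 and Tlr13, grouped after their values were seen, made up 34.5% to 41.8% of this sum in WT and 45.4% to 56.0% in KO. The mean deviation of the 10 members from their own means was −0.18, −0.09 and −0.25 in WT and 0.20, 0.13 and 0.19 in KO, on the log2 scale.

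**Figure D3:**
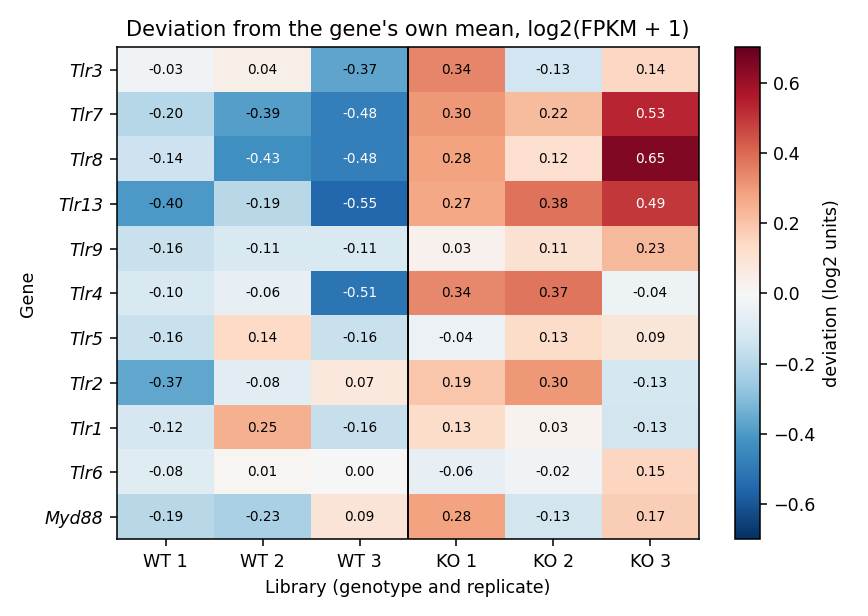
Deviation of each gene in each library from its own mean over the 6 libraries, on the log2(FPKM + 1) scale (red above, blue below), with WT libraries left and KO libraries right of the line. Tlr7, Tlr8, Tlr13 and Tlr9 are negative in each WT and positive in each KO library, with the highest cell at 0.65 for Tlr8 in KO replicate 3, whereas Tlr1, Tlr2, Tlr3, Tlr4, Tlr5, Tlr6 and Myd88 change sign within at least 1 group.

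In RNA from a whole depot, a change in the number of cells of a type and a change in RNA per cell cannot be told apart. Macrophages carry many of these receptors, and their markers are given beside them. Of 15 macrophage markers, 14 were tested and 13 of them had a log2 difference above 0, with a median of 0.26; 0 passed the threshold, with 4 at an unadjusted p under 0.05, where 19.2% of all tested genes were. Their summed level was 165 to 241 FPKM in WT and 223 to 309 FPKM in KO, and none of the 15 was at 0 in all libraries. Cd163, a scavenger receptor of resident macrophages, had means of 5.32 ± 0.646 FPKM in WT and 8.72 ± 1.24 FPKM in KO (SD, n = 3 each; limma, adjusted p 0.0831), and did not overlap. The complement genes C1qa, C1qb and C1qc, abundant in resident macrophages, were likewise higher in every KO library, with log2 differences of 0.58, 0.59 and 0.56 (limma, adjusted p 0.148, 0.106 and 0.199). With Cd163 these are the 4 markers of the list that did not overlap, where 13.6% of all tested genes were higher in KO without overlap. The other 10 tested markers overlapped, among them Adgre1 (log2 difference 0.41), Csf1r (0.21), Cd68 (0.22) and Mrc1 (0.30). All 7 general leukocyte markers had a log2 difference above 0, with a median of 0.41, and 0 of them passed. Their summed level was 60.5 to 86.3 FPKM in WT and 85.4 to 128 FPKM in KO. Ptprc, Fcer1g and Itgam were higher in every KO library and 0 were lower in every KO library. An unadjusted p under 0.05 was found for 3 of the 7, where 19.2% of all tested genes had one. Of 9 neutrophil markers 6 were tested, 4 were higher and 2 lower, and 0 passed. Csf3r and Cxcr2 were higher in every KO library, 0 were lower in every KO library, and 3 had an unadjusted p under 0.05. Their summed level was 39.8 to 65.0 FPKM in WT and 42.9 to 99.4 FPKM in KO. The summed levels of the macrophage, leukocyte and neutrophil markers all overlapped between the groups. Of 9 lymphocyte markers, 1 reached the filter. Endothelial markers had a median of −0.036 (4 higher, 4 lower). The part of these cells in the receptor values was not tested.

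A list of proteins that deliver ligands to the receptors, or fold and cut them, showed 0 calls among 15 tested genes. It also holds other surface receptors, such as Clec7a, Trem2 and Cd180. In this group 13 genes had a log2 difference above 0 and 2 below, and the median was 0.26. Higher in every KO library were 4 genes, Cd14, Hsp90b1, Ctss and Ctsl, and 0 were lower, beside 13.6% and 11.4% of all tested genes. Cd14, which hands lipopolysaccharide to Tlr4, read 1.82, 2.95 and 4.74 FPKM in the WT libraries against 4.97, 5.67 and 14.5 FPKM in the KO libraries. KO replicate 3 was the highest library and the groups did not overlap, but the log2 difference of 1.09 (SE 0.38) did not pass (limma, adjusted p 0.167); with the replicate number as a block it did (limma, adjusted p 0.0444). Ctss, a lysosomal protease that takes part in the maturation of endosomal receptors, had means of 8.88 ± 1.5 FPKM in WT and 13.8 ± 1.79 FPKM in KO (SD, n = 3 each; limma, adjusted p 0.110) and did not overlap. Ly96, the co-receptor of Tlr4, and Unc93b1, the chaperone that carries the nucleic acid receptors to endosomes, overlapped between the groups (log2 differences 0.22 and 0.20; limma, adjusted p 0.587 and 0.645).

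Among adaptors and kinases, Map3k8 was the 1 gene of 26 tested that passed. Map3k8, the kinase Tpl2 that links Toll-like receptors to ERK, rose from 1.40 ± 0.117 FPKM in WT to 2.81 ± 0.226 FPKM in KO (SD, n = 3 each; limma, log2 difference 0.66, adjusted p 0.0483). It kept the threshold in 4 of 16 alternatives and lost it when any 1 library was left out (adjusted p 0.0561 without WT replicate 1 to 0.175 without WT replicate 2). In this list 17 genes had a difference above 0 and 9 below, and 5 in each direction did not overlap: Irak3, Peli2, Tbk1, Map3k8 and Syk were higher in every KO library, and Traf3, Ube2n, Ube2v1, Tab1 and Pik3ap1 lower. The share of all tested genes without overlap was 13.6% higher and 11.4% lower. The direct partners of the receptors did not pass: Tirap, which bridges Tlr2 and Tlr4 to Myd88, had a log2 difference of 0.013, Ticam1 one of 0.14, the kinase Irak4 one of −0.042 and the ubiquitin ligase Traf6 one of 0.23, with adjusted p of 0.505 to 0.979 in limma. Ticam2, the bridge from Tlr4 to Ticam1, was at 0.30 to 0.46 FPKM and below the filter.

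Among 17 tested brakes on the pathway, 2 passed, both higher in KO, where 1.21% of all tested genes were called higher. In this list 5 genes were higher in every KO library and 1 was lower, beside 13.6% and 11.4% of all tested genes. Nfkbia, which encodes the NF-kappaB inhibitor IkappaB alpha and is itself switched on by NF-kappaB, read 14.98, 25.9 and 19.5 FPKM in the WT libraries against 38.2, 41.6 and 50.5 FPKM in the KO libraries. The lowest KO library was above the highest WT library by more than the SD of either group, and Nfkbia rose by 1.10 on the log2 scale (SE 0.21; limma, adjusted p 0.0391). Tnip2, whose product ABIN2 forms a complex with Tpl2, read 4.83, 4.05 and 5.45 FPKM in the WT libraries against 8.66, 9.10 and 8.86 FPKM in the KO libraries (limma, log2 difference 0.78, adjusted p 0.0391). Nfkbia kept the threshold in 11 of 17 alternatives and Tnip2 in 9 of 17; without any 1 library other than WT replicate 1 neither passed (adjusted p 0.0593 to 0.120 for Nfkbia and 0.0800 to 0.170 for Tnip2). Of the brakes, 12 had a difference above 0 and 5 below, with a median of 0.15.

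The transcription factors downstream gave 1 call among 15 tested, and it was lower in KO. Fos, a subunit of AP-1 and an immediate-early gene, fell from 9.04, 10.41 and 9.37 FPKM in WT to 2.71, 3.82 and 2.84 FPKM in KO (limma, log2 difference −1.37, SE 0.16, adjusted p 0.00841), and passed in all 17 alternatives. Against it, 12 of the 15 had a difference above 0, where 51.6% of all tested genes did. The 3 below 0 were Fos, Cebpb (log2 difference −0.95, limma, adjusted p 0.0674) and Irf3 (−0.50, adjusted p 0.234). In this list 2 genes were higher in every KO library and 2 lower, Fos and Cebpb, beside 13.6% and 11.4% of all tested genes. Among 18 tested genes that Toll-like receptor signalling is known to induce, the 1 that passed also fell: the chemokine gene Ccl3, from 1.48 ± 0.265 to 0.483 ± 0.117 FPKM (SD, n = 3 each; limma, log2 difference −0.74, adjusted p 0.0459), past the threshold in 6 of 16 alternatives and in none of the fits without 1 library other than WT replicate 1 (adjusted p 0.0902 to 0.180). In the same list 12 genes had a difference above 0 and 6 below, with a median of 0.39, and 12 had an unadjusted p under 0.05, where 19.2% of all tested genes did. Higher in every KO library were the chemokine genes Cxcl10 and Ccl5, the adhesion molecule gene Vcam1 and the interferon-induced genes Ifit1, Ifit2, Ifit3 and Rsad2; lower in every KO library were Cxcl1 and Ccl3 (13.6% and 11.4% of all tested genes). Without KO replicate 2, the KO library lowest in each of them, Cxcl10, Ifit3, Mx1 and Rsad2 passed, higher in KO (limma, adjusted p 0.0258 to 0.0476). Without WT replicate 1, Ccl2 passed in the other direction (limma, log2 difference −1.02, adjusted p 0.0469). Tnf, Il6, Il10 and 6 further genes of the list were below the filter, so the median describes the better expressed genes only. Over all 27 genes of the list that were present, the median was 0.085. The filter used the mean over all 6 libraries. Cxcl10, Ccl5 and Saa3, at means of 0.38, 0.21 and 0.37 FPKM in WT, reached it through KO. Cxcl1 and Ccl3, at 0.45 and 0.483 FPKM in KO, reached it through WT. The counts and the median of the tested genes include these genes.

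Among 14 tested genes for proteins that have been described as ligands of these receptors released by the body itself, Fstl1, the targeted gene, was the 1 that passed (limma, log2 difference −2.79, adjusted p 0.00979), and 10 of the 14 had a difference above 0. Signalling receptors of the interleukin-1 receptor family, relatives of the Toll-like receptors, share Myd88. In a list of this family and its ligands, Il1r2 was the 1 call of 8 tested genes, which include the ligand genes Il33 and Il18. Of the 8, 6 had a difference above 0 and 2 below. In this list 4 genes were higher in every KO library and 0 lower, beside 13.6% and 11.4% of all tested genes. Il1r2, a decoy receptor that binds interleukin-1 without signalling, read 3.68, 2.75 and 2.63 FPKM in the WT libraries against 9.10, 7.04 and 8.62 FPKM in the KO libraries. It rose by 1.21 on the log2 scale (limma, SE 0.17, adjusted p 0.0164) and kept the threshold in 14 of 17 alternatives. It did not pass without the filter on low values, without WT replicate 2 (limma, adjusted p 0.0752) or without WT replicate 3 (0.0700). Over all 7 lists of pathway genes, 113 different genes were tested and 7 passed, 4 higher and 3 lower, the deleted gene Fstl1 among the latter. Over all tested genes 2.21% passed, 1.21% higher and 1.01% lower.

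**Figure D4:**
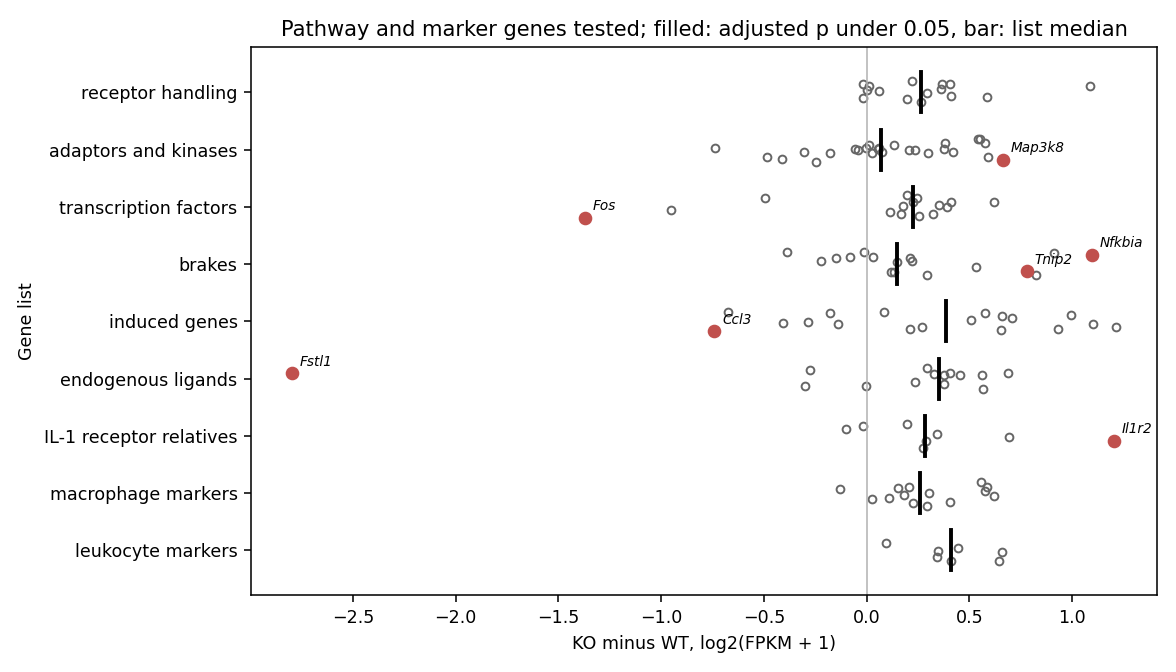
Difference between KO and WT on the log2(FPKM + 1) scale for the tested genes of 7 pathway lists and 2 marker lists; filled red points passed an adjusted p of 0.05 and black bars are list medians. Map3k8, Tnip2, Nfkbia and Il1r2 are the red points to the right of 0, and Fos, Ccl3 and Fstl1 those to the left.

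The genes whose pattern over the 6 libraries was most like the mean deviation of the 10 members, among 8373 other genes averaging 5 FPKM or more, were Galnt15 (Pearson's r 0.994), Serinc3 (0.993), Glcci1 (0.993), Ccdc117 (0.992) and Mylip (0.991). The points are 6 libraries of 2 groups, so each coefficient includes the difference between the groups, and 74 genes exceeded an r of 0.95. Galnt15, a glycosyltransferase gene, read 6.28, 7.66 and 5.13 FPKM in the WT libraries against 17.0, 16.2 and 16.9 FPKM in the KO libraries, and Mylip, a ubiquitin ligase gene, read 19.2, 21.98 and 17.2 FPKM in the WT libraries against 38.0, 33.0 and 32.9 FPKM in the KO libraries. Both genes were higher in every KO library than in any WT library, a separation that the choice of genes by likeness favours.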

How the data were processed

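The authors deposited FPKM values per gene and library, rounded to 2 decimals, per the file headers. The submitters' processing notes name HISAT2 2.0.4, Bowtie2 2.2.5, DESeq2 and the build mm10, with no role or order; quantifier, annotation, strand handling and filters are not given in the sources used here. FPKM are not counts, so no count model was fitted. Values were transformed as log2(FPKM + 1), and genes averaging 0.5 FPKM or more were tested for KO against WT with limma 3.58.1 in R 4.3.3 (eBayes with trend, no covariates, Benjamini-Hochberg over 13331 genes, threshold 0.05); of the 10 members 8 passed this filter. On simulated data the fit recovered 172 of 200 genes (86.0%) changed by 1.5 on the log2 scale and called 4 unchanged genes. The changed genes were drawn from tested genes of all levels. Differences of the members were smaller, at most 0.76 for Tlr13, so this recovery says nothing about changes of their size. Read numbers are estimates: low FPKM values of transcripts of 500 to 1300 nt fell within 0.2 of whole reads for 76.1% to 81.0% of values (43.4% to 46.2% with lengths shuffled), after a length offset of 50 nt. Transcript lengths are from GENCODE vM21 and positions from RefSeq on GRCm38.p6. Nothing in the labels says whether libraries came from separate animals, so p-values measure the spread between these samples. The replicate numbers were not taken to pair libraries. Correlations of same-numbered deviations were 0.0681, 0.0433 and 0.0433, small but above those of differently numbered libraries, which ran from −0.0781 to 0.0292. The members and the gene lists were chosen with earlier results of these data known. Named are the members, other Toll-like receptors, their partners, genes past the threshold in each pathway list (or the 2 with the smallest p), 5 macrophage markers and the 5 genes most alike in pattern; others were named after their values were seen. Of the marker lists, those of dendritic cells (median 0.15, 5 tested), mast cells (0.020, 6 tested) and fibroblasts (0.21, 7 tested) had 0 calls; the skeletal muscle list (−0.66, 8 tested) had 0 and that of brown adipocytes (−0.47, 8 tested) 1, Plin1, lower in KO.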

Additional observations from a re-analysis of the deposited data

How the results depend on the processing

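The direction of Tlr13, Tlr7, Tlr8 and Tlr4 held in all 16 alternatives that tested them, and the call of Tlr13 did not. Of the members, 0 were called without the filter on low values, with a filter at 5 FPKM (which leaves Myd88 alone), with a common FPKM sum and with the replicate block, 2 with robust eBayes (Tlr7 and Tlr13), and 0 in each fit without 1 library, where Tlr13 ran from an adjusted p of 0.0615 to 0.139. Over all genes 295 were called, against 35 without the filter, 191 with a common sum, 167 with the replicate block and 34 (without WT replicate 3) to 444 (without WT replicate 1) when 1 library was left out. Of the pathway genes 7 were called, against 1 without the filter, 7 with the replicate block and 2 to 8 without 1 library. The 7 under the block shared 4 genes with the first 7: Map3k8, Tnip2 and Ccl3 were lost, and Cd14, Ifit1 and Ifit3 were gained (adjusted p 0.0444, 0.0498 and 0.0495). The median over the members was 0.24, and 0.44 and 0.49 at pseudocounts of 0.1 and 0.01, by construction of the scale; without 1 library it ran from 0.19 to 0.35. Differences near 0 changed sign. That of Tirap was −0.039 with quantile normalization, −0.0066 with median-of-ratios scaling, −0.013 with the trimmed mean of M-values and −0.12 to 0.095 without 1 library. Ticam1 ran from −0.11 to 0.30 without 1 library, Irak4 from −0.16 to 0.12 and Csf1r from −0.051 to 0.47. Of the members, Tlr1 or Tlr6 fell below 0 in 4 of these 6 fits. Apart from what the filters do by construction, the cause was not tested. Depth limits Tlr11 and Tlr12, at 3 reads or fewer, and then Tlr1, Tlr2, Tlr6 and Tlr9, at about 7 to 45 reads per library.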
